A study of Mus musculus with 10 samples.

Results

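The comparison of EP300 KO with EP300 WT covers 4 of the 10 RNA-seq libraries of the series, 2 in each group, and takes in every gene with at least 10 counts in at least 2 of those 4 libraries. This kept 14309 of the 55385 genes in the count table. All 4 libraries were labelled as liver hepatocytes of C57BL/6J 129SV mice carrying EP300f/f alleles, which Cre can inactivate. Each mouse was kept on DDC diet, which injures hepatocytes and bile ducts, and was given pT3-cMet plasmid by HTVi (hydrodynamic tail vein injection), a route that puts the cMet receptor tyrosine kinase gene into hepatocytes. The labels give 5 months for this treatment. The EP300 KO mice received AAV-TBG-Cre and the EP300 WT mice AAV-TBG-GFP, and the TBG promoter is active in hepatocytes, so deletion was aimed at those cells and not at other cells of the liver. Library titles begin with HCC, but the labels do not say how much of a library came from tumour. Cells were sorted after liver perfusion. The labels speak of pooled sequencing and tie no library to an animal, and age and sex are not given, so the p-values below measure only the spread between libraries, which may be technical.

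EP300 is a lysine acetyltransferase that acetylates histones, among them histone H3 at enhancers, and is recruited as a coactivator by many transcription factors. Its catalytic activity and its contacts with the transcription machinery favour transcription of the genes it is brought to. In liver it acts with hepatocyte factors and with factors that respond to hormones, fasting and inflammation.

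Ep300 (chromosome 15, 81585351 to 81652077, mm10) stood at 73.8 and 72.3 CPM in the EP300 KO libraries and at 62.3 and 57.9 CPM in the EP300 WT libraries, where CPM is the depth-normalised count after TMM scaling of library sizes. The KO-labelled libraries were therefore the higher ones, by 0.28 on the log2 scale (SE 0.07, edgeR adjusted p = 0.00499). The call was lost without EP300 WT replicate 2 (adjusted p = 0.122). A gene-level count cannot show whether an exon is missing, and every direction below is between libraries as labelled.

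Of the 14309 genes, 4855 changed at an edgeR adjusted p below 0.05, which is 33.9% of those tested. Among them 2369 were higher in the libraries labelled EP300 KO (16.6%) and 2486 were lower (17.4%). A change of at least 2-fold was called in 1169 genes (8.17%), with 445 higher (3.11%) and 724 lower (5.06%). The counts rested on how tightly the WT pair agreed. Without EP300 WT replicate 1 the fit called 2866 genes and without EP300 WT replicate 2 it called 2845, as against 4911 and 5186 without EP300 KO replicate 1 or 2. With library size alone in place of TMM, 1843 genes were higher and 3067 lower, which moved the share of higher calls from 48.8% to 37.5% and the median log2 fold change of all genes from -0.01 to -0.07. Total counts were 17709799 and 17811489 in EP300 KO and 18575701 and 18831671 in EP300 WT.

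The called genes held a large part of each library. The genes called higher took 42.8% and 41.1% of the counts in the EP300 KO libraries and 30.8% and 30.9% in the EP300 WT libraries. The genes called lower took 26.3% and 27.7% in EP300 KO and 37.0% and 36.8% in EP300 WT. Changes of at least 2-fold weighed less. Genes called higher by that much rose from 1.38% and 1.36% of counts to 5.22% and 4.68%, and those called lower went from 2.30% and 2.30% to 0.693% and 0.750%. The 10 most abundant genes of a library held 23.2% and 23.6% of its counts in EP300 KO and 26.1% and 26.2% in EP300 WT.

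Hepatocyte markers were present at high level in all 4 libraries, with a summed level of 128073 and 135094 CPM for 9 markers in EP300 KO and 156697 and 155464 CPM in EP300 WT. Of those 9, Apob, Cps1, Serpina1c and Ttr rose and Ahsg, Alb, Apoa1 and Trf fell, and the calls of Alb and Apob were lost without EP300 WT replicate 1 or without replicate 2. Markers of other cell types were low by comparison. The 8 stellate and fibroblast markers summed to 172 and 165 CPM in EP300 KO and to 274 and 267 CPM in EP300 WT, with 5 lower and 0 higher (2 lower without EP300 WT replicate 1). Reln gave most of that fall, at 30.9 and 32.9 CPM against 119 and 113 CPM, and Dcn, Des and Lrat did not pass. The 8 endothelial markers summed to 241 and 215 CPM against 286 and 281 CPM, again with 5 lower and 0 higher. Kdr, Stab2 and Clec4g did not pass. The cholangiocyte list summed to 126 and 130 CPM against 197 and 200 CPM, with 3 of its 6 tested members lower. Macrophage markers lay at 605 to 648 CPM in all libraries, with 2 of 8 higher and 2 lower (1 and 0 without EP300 WT replicate 1 or 2), and lymphocyte markers at 0.895 to 1.30 CPM. Calls of pancreas acinar markers went the other way, with 4 of 5 tested higher and 0 lower. The higher ones were Cpa1, Ctrb1, Pnlip and Prss2, each below 3 CPM in every library. Cpa1, Pnlip and Prss2 reached 10 counts only in the EP300 KO libraries, so they passed the filter through those alone. That favours rises, so nothing about the list is read from this split. The list summed to 15.98 and 15.70 CPM in EP300 KO and to 13.63 and 15.01 CPM in EP300 WT. Most of each sum was Cela1, which did not pass (log2 fold change -0.28). Of 4 neutrophil markers tested 2 were lower, and 0 without EP300 WT replicate 2 or EP300 KO replicate 2. All 6 proliferation markers fell, from 30.7 and 30.1 CPM summed to 10.2 and 9.31 CPM, and 4 of them did so without EP300 WT replicate 1 or 2. The part of these shifts in the results below was not tested, and in bulk RNA fewer cells of a type cannot be told apart from less RNA per cell.

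Xist, the noncoding RNA of the inactive X chromosome (chromosome X, 103460366 to 103483254), had 2310 and 1411 counts in the EP300 KO libraries and 3 and 2 in the EP300 WT libraries. The Y-linked genes did not mirror this. Ddx3y had 954 and 813 counts in EP300 KO and 1079 and 1077 in EP300 WT, and Eif2s3y had 711 and 611 against 701 and 696. Kdm5d and Uty also missed the threshold, with log2 fold changes of 0.16 (edgeR adjusted p = 0.333) and -0.28 (adjusted p = 0.0822). Y-linked genes summed to 2584 and 2184 counts in EP300 KO and to 2472 and 2524 in EP300 WT, so RNA of both the Y chromosome and Xist was counted in the libraries labelled EP300 KO. Its part in the changes below was not tested.

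From 1 CPM upwards direction went with abundance. Of the 1492 genes below a mean of 1 CPM, 93 were called higher and 192 lower, and of the 4718 genes at 1 to 10 CPM, 405 were higher and 721 lower. At such low counts a gene can pass the filter through the libraries of 1 label alone, and the EP300 WT libraries held more counts. Nothing about direction is therefore read from the class below 1 CPM, and the lower end of the next class shares this limit. At 10 to 100 CPM the 6827 genes divided almost evenly, 1318 higher and 1256 lower. Among the 1165 genes at 100 to 1000 CPM the balance turned, with 495 higher and 289 lower, and among the 107 genes at 1000 CPM and over it was 58 higher against 28 lower. The median log2 fold change moved the same way, from -0.18 in the rarest class through -0.08, 0.02 and 0.10 to 0.18 in the most abundant class, against -0.01 over all genes. The split of the 10 to 100 CPM class turned under library size alone (961 higher, 1619 lower), under upper-quartile scaling (1210 and 1325) and without EP300 WT replicate 1 (734 and 767) or 2 (696 and 744). The splits of the other 4 classes kept their direction under each of the 3 other scalings and with each library left out.

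The share of genes called was larger in each more abundant class. It was 19.1% below 1 CPM, 23.9% at 1 to 10 CPM, 37.7% at 10 to 100 CPM, 67.3% at 100 to 1000 CPM and 80.4% at 1000 CPM and over, beside 33.9% overall. The median biological coefficient of variation was 15.2% in the rarest class, 9.70% and 5.18% in the next classes, and 4.74% and 4.90% in the upper ones. The median size of the change, regardless of sign, was 0.57, 0.31, 0.18, 0.26 and 0.29 on the log2 scale in the same order. The smallest change called was 1.10 on the log2 scale below 1 CPM, 0.36 at 1 to 10 CPM and 0.17 at 10 to 100 CPM, and it was 0.15 and 0.11 in the upper classes. In the rarest class every called change was therefore at least 2-fold, and smaller ones were not detectable at this depth. Without EP300 WT replicate 1 or 2 the classes gave 136 and 157, 624 and 652, 1501 and 1440, 550 and 540, and 55 and 56 calls from the rarest to the most abundant.

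**Figure D1:**
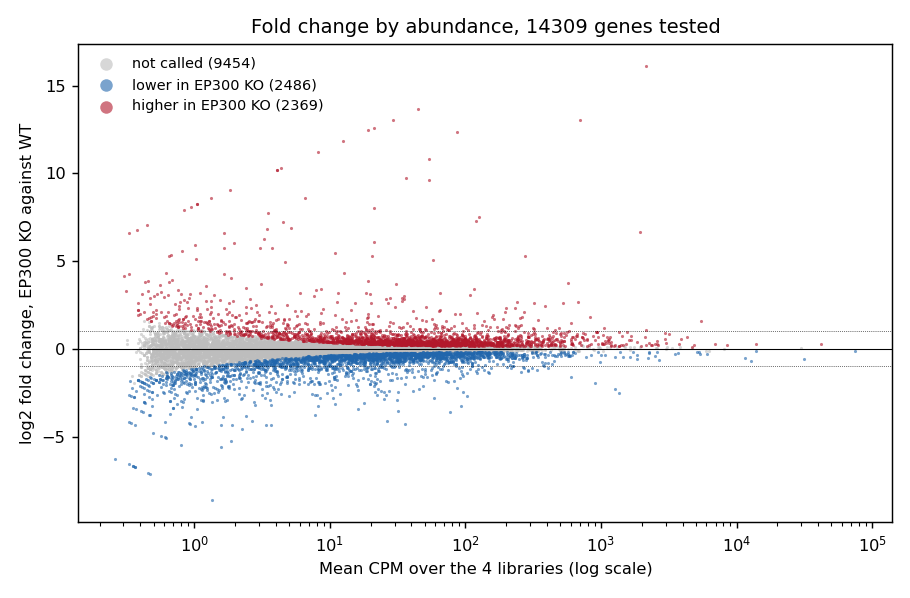
Each point is 1 of the 14309 genes tested, placed by its mean CPM over the 4 libraries (log axis) and its log2 fold change between the libraries labelled EP300 KO and EP300 WT, with dotted lines at 2-fold. The 2369 red points were called higher and the 2486 blue points lower, and the grey band of genes not called narrows from left to right.

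Most called changes were small. Of the 4855 genes called, 1065 differed by less than 1.25-fold, and 631 of these were higher (59.2%). A further 1627 lay between 1.25 and 1.5-fold, with 844 higher and 783 lower. From 1.5 to 2-fold the lower genes outnumbered the higher ones, 545 to 449, and from 2 to 4-fold 516 to 284. Between 4 and 8-fold there were 144 lower and 71 higher genes. At 8-fold and over the order turned again, with 90 higher and 64 lower. A block of 24 neighbouring higher genes on chromosome 4, described below, had a median log2 fold change of 9.97, so 1 locus gave many of the 90. The median level of the called genes declined as the change grew, from 66.2 CPM for higher and 59.8 CPM for lower genes below 1.25-fold to 3.47 and 0.817 CPM at 8-fold and over. Of the 1344 genes tested whose estimate passed 2-fold, 1169 were called, and all 369 past 4-fold were called.

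**Figure D2:**
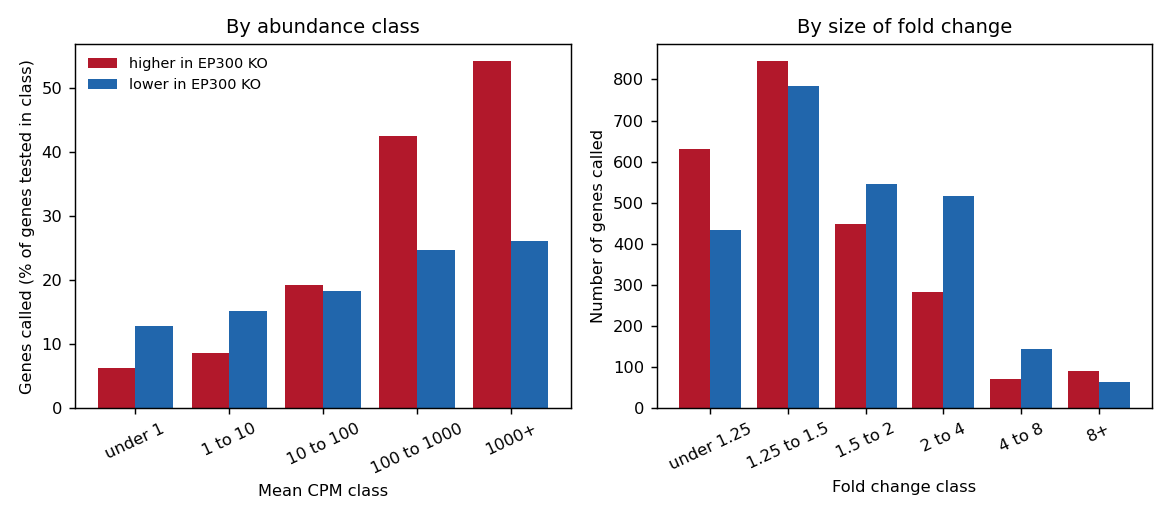
Left, genes called higher (red) and lower (blue) as a percentage of the genes tested in each class of mean CPM; right, the number of genes called in each class of fold change. The red bars pass the blue ones from 100 CPM upwards on the left, and on the right they are the shorter bars from 1.5 to 8-fold.

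Genes of the liver lists, meaning 1493 symbols and a set of gene family names for metabolism, secreted proteins, zonation, tumour markers, stress, immunity and the cell cycle, were called at a higher share than the rest. Of the 1858 listed genes tested, 521 were higher and 661 lower (63.6% called), and 20.0% changed at least 2-fold. The 12451 genes in no list held 1848 higher and 1825 lower genes (29.5% called), and 6.40% changed at least 2-fold. The lists were chosen with earlier results of these data known, which can raise the share of listed genes called. Listed genes were also better counted, with 61.0% to 61.2% of the counts of a library. Their median SE was 0.09 against 0.13 for genes in no list, and the shares were not matched for abundance. The genes in no list made up 3673 of the 4855 genes called. Their even split depended on the scaling, since it became 1382 higher and 2337 lower under library size alone, and 1710 and 1922 under upper-quartile scaling. With fewer calls it was 984 and 970 without EP300 WT replicate 1 and 951 and 991 without replicate 2. The share of listed genes rose with the size of the change, from 18.5% of the genes called below 1.25-fold to 27.0% at 2 to 4-fold and 43.5% at 8-fold and over.

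Well-counted genes outside those lists are described next. Of 403 genes that changed at least 2-fold with a mean of at least 10 CPM in the higher group, 205 were in a liver list and 17 had predicted or clone-based names. The other 181 were 70 higher and 111 lower genes, and 1 of the higher ones has no symbol in the annotation used. By the rule their libraries do not overlap between groups, which was true of 66.3% of all genes tested. Their median change was 2.42-fold in each direction, and 13 of the higher and 16 of the lower genes passed 4-fold. Both directions had members on each of the 19 autosomes and on X. The replicate coefficient of variation had a median of 10.8% in EP300 KO and 3.42% in EP300 WT for the lower genes, and of 6.54% and 4.54% for the higher genes.

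The promoters of the genes with the largest changes differed widely in CpG content, the pairs of C and G at which mammalian DNA is methylated and which cluster in the promoters of broadly used genes. The sequences below show this range as the 250 bases before the RefSeq start on GRCm38.p6, 5′ to 3′ on the gene's strand, with every CG in capitals. They are the CpG-richest and CpG-poorest among the 15 largest rises and among the 15 largest falls for which a sequence was given. Upp2 (chr2:58567084-58567333, plus strand, 29 CG) and Clec2h (chr6:128662135-128662384, plus strand, 0 CG) were higher in the libraries labelled EP300 KO. Cacna1b (chr2:24763153-24763402, minus strand, 29 CG) and Tlr1 (chr5:64933559-64933808, minus strand, 1 CG) were lower.
Upp2: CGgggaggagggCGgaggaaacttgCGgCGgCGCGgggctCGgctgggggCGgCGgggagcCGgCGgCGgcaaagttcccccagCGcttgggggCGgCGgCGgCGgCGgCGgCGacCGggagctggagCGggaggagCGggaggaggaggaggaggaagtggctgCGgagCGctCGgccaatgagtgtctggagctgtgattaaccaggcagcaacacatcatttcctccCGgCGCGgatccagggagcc
Clec2h: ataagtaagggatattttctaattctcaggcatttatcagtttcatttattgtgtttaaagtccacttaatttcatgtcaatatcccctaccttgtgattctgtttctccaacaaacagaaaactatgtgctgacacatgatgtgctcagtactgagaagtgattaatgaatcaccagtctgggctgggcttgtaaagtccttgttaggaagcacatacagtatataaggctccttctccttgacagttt
Cacna1b: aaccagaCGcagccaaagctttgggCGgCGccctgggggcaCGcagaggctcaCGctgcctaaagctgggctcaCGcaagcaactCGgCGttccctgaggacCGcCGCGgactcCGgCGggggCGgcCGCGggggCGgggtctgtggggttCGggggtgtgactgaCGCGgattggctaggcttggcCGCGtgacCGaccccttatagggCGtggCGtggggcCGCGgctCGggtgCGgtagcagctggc
Tlr1: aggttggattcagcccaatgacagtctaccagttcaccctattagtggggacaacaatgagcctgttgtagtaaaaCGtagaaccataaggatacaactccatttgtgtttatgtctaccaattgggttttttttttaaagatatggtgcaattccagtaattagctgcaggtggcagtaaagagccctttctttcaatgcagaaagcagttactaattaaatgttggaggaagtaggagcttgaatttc

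Genes changed at least 2-fold had CpG-poor promoters more often than the other genes did. A promoter window of 300 bases was matched for 10082 of 12769 protein-coding genes tested, using the first listed window for the 2077 genes with several. Of all matched promoters 69.6% had a ratio of observed to expected CpG of 0.6 or more. The share was 72.6% for genes not called, 64.8% for genes called higher and 63.1% for genes called lower. It was 34.4% for the 244 genes higher and 49.8% for the 476 genes lower by at least 2-fold. Outside the liver lists it was 43.4% of 145 and 49.2% of 307. Abundance moved with this too, since at 100 CPM and over the share was 66.1% of genes not called, 51.9% of those higher and 61.1% of those lower. Genes changed at least 2-fold were also rarer. Over all gene classes those higher had a median of 3.75 CPM and those lower 2.24 CPM, against 13.4 CPM for all genes tested. The promoter shares by fold size were not matched for abundance. Among the largest changes outside chromosome 18, 4 of 9 matched rises and 4 of 9 matched falls had a ratio of 0.6 or more. These matched rises and falls did not separate by CpG content.

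Short motifs were searched in the same windows on both strands. The GC box (GGGCGG or CCGCCC), which can overlap CpG pairs counted above, was in 62.9% of all matched promoters, in 41.0% of those of genes higher and in 56.3% of those of genes lower by at least 2-fold. The TATA box letters (TATAAA or TTTATA) were in 7.45% of all promoters, in 13.9% of those of genes higher and 9.03% of those of genes lower by at least 2-fold. The AP-1 letters (TGANTCA, which reads the same on both strands) were in 5.22%, 9.02% and 6.51%. These are matches of letters, and no binding was measured.

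**Figure D3:**
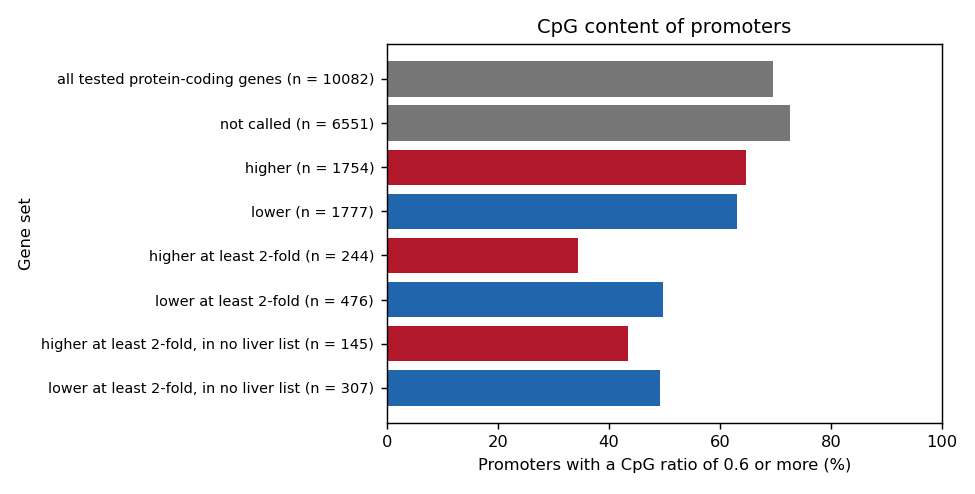
Bars give the percentage of matched promoters with a ratio of observed to expected CpG of 0.6 or more, for all tested protein-coding genes and for genes by direction and size of change, with the number of promoters in brackets. The shortest bar is that of genes higher by at least 2-fold (34.4%) and the longest that of genes not called (72.6%).

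The largest rise outside the lists, among genes with at least 10 CPM in the higher group, was in Car3, a cytosolic carbonic anhydrase (chromosome 3, 14863512 to 14872523). It had 584 and 495 CPM in the EP300 KO libraries and 14.4 and 13.6 CPM in the EP300 WT libraries. Both KO-labelled libraries were far above both WT-labelled ones (log2 fold change 5.27, SE 0.09, edgeR adjusted p = 2.15e-15). Upp2, a uridine phosphorylase that breaks down uridine (chromosome 2, 58567298 to 58792971), was the most abundant of the rises at the level reached, with 600 and 498 CPM in EP300 KO and 91.4 and 89.9 CPM in EP300 WT (log2 fold change 2.60, SE 0.08). Srd5a1, a steroid 5-alpha-reductase, had 66.4 and 52.2 CPM against 8.74 and 8.88 CPM (2.75, SE 0.12). Of its exon bases 16.4% overlap another gene, and the library kit does not mark strand, so reads there cannot be assigned to 1 of them. Cmah, which converts one sialic acid into its N-glycolyl form, had 118 and 92.3 CPM against 23.6 and 23.5 CPM (2.16, SE 0.10). Lipg, a secreted lipase that acts on the phospholipids of HDL, had 60.7 and 54.4 CPM against 4.95 and 4.0 CPM (3.68, SE 0.12). That the groups do not overlap in these 5 genes follows from the rule that chose them, and it was true of 66.3% of all genes tested.

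Slc22a7, an organic anion transporter of the basolateral hepatocyte membrane (chromosome 17, 46432183 to 46438457), had 38.9 and 32.7 CPM in EP300 KO and 2.74 and 2.13 CPM in EP300 WT (log2 fold change 3.88, SE 0.15, edgeR adjusted p = 1.73e-11). Asic5, a sodium channel that bile acids can open, had 20.7 and 20.7 CPM against 1.95 and 2.55 CPM (3.20, SE 0.15). Kcnk5, a potassium leak channel, had 92.1 and 81.0 CPM against 15.7 and 16.8 CPM (2.41, SE 0.09). Scnn1a encodes the alpha subunit of the epithelial sodium channel and had 25.8 and 21.4 CPM against 4.74 and 5.56 CPM (2.19, SE 0.14). The same rule sets the groups of these 4 genes apart.

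The remaining members of the 15 largest rises that reached 10 CPM were Fam47e (log2 fold change 2.59), Nrep (2.25), the adhesion molecule Cadm4 (2.16), the calcium-binding protein Cabyr (2.06), the C-type lectin Clec2h (1.99) and Xlr3a (1.89). All 6 were below 5 CPM in both EP300 WT libraries and between 9.43 and 26.5 CPM in both EP300 KO libraries. Xlr3a and Clec2h have close relatives in the mouse genome, so their counts depend on how shared reads were assigned. By abundance the rises were led by Upp2, Car3, Nat8f2, Ttc39c and Pim3. Nat8f2 had 458 and 421 CPM against 202 and 205 CPM (1.11, SE 0.06), with the same limit for its related copies. Ttc39c rose by 1.75 (SE 0.06), from 120 and 110 to 399 and 375 CPM. Pim3, a serine/threonine kinase, rose by 1.37 (SE 0.06), from 116 and 120 to 310 and 297 CPM.

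Lepr, the leptin receptor (chromosome 4, 101717404 to 101815352), had 2.55 and 1.84 CPM in EP300 KO and 19.3 and 19.7 CPM in EP300 WT (log2 fold change -3.15, SE 0.16, edgeR adjusted p = 5.75e-10). Cacna1b, the pore subunit of the N-type calcium channel of neurons, had 5.44 and 6.73 CPM against 44.4 and 43.2 CPM (-2.85, SE 0.11). It closed a block of neighbours that all fell, Il1f9, Il1rn, Psd4 and Cacna1b. Tlr1, a receptor for bacterial lipopeptides, had 5.21 and 5.40 CPM against 22.2 and 21.7 CPM (-2.05, SE 0.12). Ocstamp, a membrane protein known from the fusion of osteoclasts (chromosome 2, 165393760 to 165400405), fell most among unlisted genes that reached 10 CPM in a group, from 29.6 and 29.4 CPM to 2.61 and 2.87 CPM (-3.42, SE 0.13).

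Plat, the tissue plasminogen activator, had 2.72 and 4.08 CPM in EP300 KO and 17.8 and 17.0 CPM in EP300 WT (log2 fold change -2.35, SE 0.16). Stc1, a secreted glycoprotein hormone, had 1.74 and 2.47 CPM against 15 and 14.8 CPM (-2.82, SE 0.18). Gldn, a secreted protein known from the nodes of Ranvier of peripheral nerve, had 6.89 and 7.99 CPM against 58.4 and 52.7 CPM (-2.90, SE 0.11). Nid1, a basement membrane protein, was among the abundant falls at 133 and 158 CPM against 370 and 364 CPM (-1.33, SE 0.07).

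Inside the cell, Kif5c, a kinesin heavy chain, had 7.06 and 8.39 CPM in EP300 KO and 43.8 and 41.0 CPM in EP300 WT (log2 fold change -2.46, SE 0.11). Hilpda, a lipid droplet protein that restrains triglyceride breakdown, had 4.46 and 6.27 CPM against 26.7 and 27.4 CPM (-2.33, SE 0.14). Dhrs9, a retinol dehydrogenase, had 3.13 and 2.30 CPM against 10.6 and 11.5 CPM (-2.03, SE 0.18). Tmeff2 (-2.49), Thsd4 (-2.17), Fam84b (-2.09) and Eno1b (-2.62) were also among the 15 largest falls. Fam84b shares 41.7% of its exon bases with another gene, and Eno1b is a near copy of the enolase gene Eno1, so both counts are uncertain. The abundant falls were Abhd2, Epas1, Nid1, Rgs16 and Slc39a4. Epas1, which encodes the oxygen-regulated transcription factor HIF-2alpha (chromosome 17, 86753700 to 86833410), had 198 and 200 CPM against 419 and 419 CPM (-1.08, SE 0.06). Abhd2, a serine hydrolase, had 244 and 268 CPM against 570 and 539 CPM (-1.12, SE 0.06). Rgs16, which shortens G-protein signals, and the zinc importer Slc39a4 fell by 1.00 and 1.02 on the log2 scale.

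**Figure D4:**
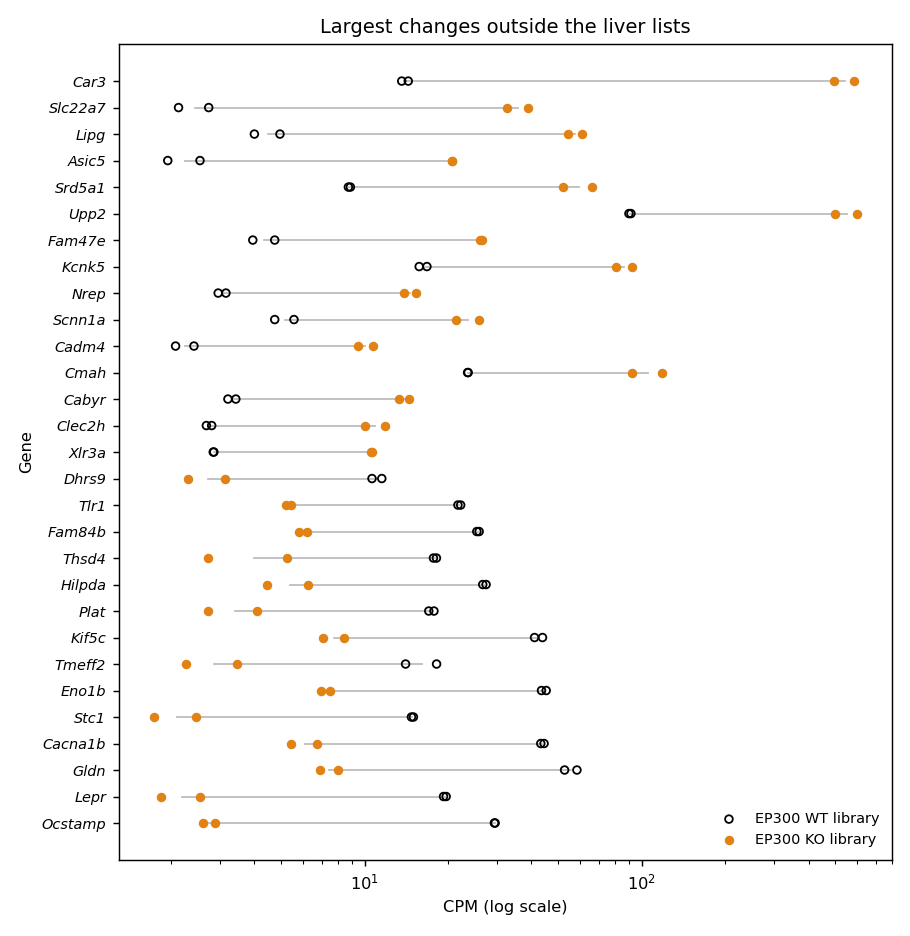
Each row is a gene among the 15 largest rises (top) or among 14 of the 15 largest falls (bottom) outside the liver lists that reached 10 CPM in a group, and the points give CPM (log axis) in the 2 EP300 KO libraries (filled) and the 2 EP300 WT libraries (open), joined at their means by a grey line. The rule that chose the genes sets filled and open points apart in every row, which was true of 66.3% of all genes tested. Rows run from Car3 at 584 and 495 against 14.4 and 13.6 CPM to Ocstamp at 2.61 and 2.87 against 29.6 and 29.4 CPM.

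A few genes were near absent under 1 label. Of the 55385 genes in the count table, 26 had 3 or fewer counts in one group and at least 100 in the other. Of these 26, 23 were higher in EP300 KO and 3 in EP300 WT, and 19 were in a liver list. Most of the 23 belong to the major urinary protein cluster of chromosome 4, whose members share reads, so the split largely reflects 1 locus. Outside the lists, Myom2, a protein of the sarcomere M-band, had 160 and 143 counts in EP300 KO and 0 and 0 in EP300 WT, at least 111-fold higher with the summed WT group set to a floor of 3 counts. Car1, the carbonic anhydrase of red cells, had 75 and 58 counts against 0 and 2, a ratio of 73.4 (95% exact interval 19.9 to 612, counting error only). Alas2 and Klf1, 2 of the 4 red cell markers tested, rose beside it. The globin genes Hba-a1 and Hbb-bs did not pass (edgeR adjusted p = 0.847 and 0.510). The erythroid list summed to 57.6 and 53.2 CPM in EP300 KO and 12.9 and 12.7 CPM in EP300 WT. Most of the EP300 KO sum was Alas2, at 45.7 and 45.1 CPM against 6.32 and 6.23 CPM in EP300 WT. The part of red cell precursors was not tested. Slc22a28, an organic ion transporter, had 60 and 53 counts against 0 and 1, a ratio of 125 (21.9 to 4968). Hist1h2al, annotated as a processed pseudogene of a histone gene, had 53 and 75 counts against 0 and 0, at least 47.1-fold higher.

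Protein-coding genes carried most of the calls and 98.8% to 98.9% of counts, with 2185 higher and 2310 lower of 12769 (35.2%), a total that dropped to 2673 and 2631 without EP300 WT replicate 1 or 2. Processed pseudogenes had 37 higher and 48 lower of 428 (19.9%), long intergenic RNAs 29 and 38 of 274 (24.5%), and antisense RNAs 44 and 26 of 273 (25.6%). The antisense class leaned upwards where the protein-coding class did not, with a median log2 fold change of 0.12, but that median was 0.05 under library size alone and -0.00 without EP300 WT replicate 2. The 31 transcribed unprocessed pseudogenes had 11 higher and 5 lower members and a median of 0.47, and 10 of them were called without EP300 WT replicate 2. Of 15 immunoglobulin variable genes 12 fell and 0 rose, with a median of -3.75 (median SE 0.77). Together they held 0.000379% and 0.000292% of the counts in EP300 KO and 0.00122% and 0.00140% in EP300 WT. At such low counts a gene can pass the filter through the EP300 WT libraries alone. That favours falls, so nothing about the class is read from this split. Without EP300 WT replicate 1 or 2 the calls came to 43 and 52 for processed pseudogenes, 36 and 43 for intergenic RNAs, 29 and 30 for antisense RNAs and 12 and 10 for immunoglobulin variable genes.

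Among noncoding genes with at least 10 CPM in the higher group the largest rise after Xist was in Rps3a2, a processed copy of a ribosomal protein gene, with 41.7 and 42.1 CPM in EP300 KO and 0.789 and 0.416 CPM in EP300 WT (log2 fold change 6.11, SE 0.17). Gm4735, another processed copy, fell from 51.3 and 48.4 CPM to 2.66 and 2.99 CPM (-4.14, SE 0.12). The counts of such copies depend on how reads shared with the parent gene were assigned. Serpina4-ps1, an unprocessed pseudogene, rose from 1.16 and 0.831 CPM to 42.4 and 37.5 CPM (5.32, SE 0.16). Gm43305, a processed transcript on chromosome 14 (54292443 to 54297456), rose from 24.3 and 22.4 CPM to 203 and 184 CPM (3.05, SE 0.08), which made it the best-counted of the noncoding rises named here. The imprinted RNAs H19 and Rian fell by 3.58 and 1.92 on the log2 scale. Of the antisense RNAs, Gm20319 rose by 0.76 and Gm16559 fell by 0.90, and 49.1% of the exon bases of Gm20319 overlap another gene.

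Gene families outside the liver lists were grouped by symbol. Their shares stand beside the 33.9% of all genes called and the 29.5% of genes in no liver list, which is the like set. Solute carriers, the largest set of membrane transporters, had 66 higher and 32 lower of 222 (44.1%), with a median log2 fold change of 0.13. Besides Slc22a7, the rises included Slc22a30 (1.60), an organic ion transporter, and Slc25a51 (1.34), a mitochondrial carrier. Slc1a5, a glutamine and neutral amino acid transporter, fell by 1.74 (SE 0.12), from 30.6 and 28.6 CPM to 10.1 and 7.65 CPM. ABC transporters had 11 higher and 5 lower of 27, led by Abcd3, a peroxisomal fatty acid transporter (0.97, SE 0.07), which had 454 and 399 CPM against 214 and 221 CPM. The autophagy genes and peroxins, which build peroxisomes, had 19 higher and 1 lower of 43 (46.5%), with a median of 0.18, and Pex16 was the largest of them with at least 10 CPM in the higher group, at 0.69. The splits of these 3 families kept their direction under all scalings. Without EP300 WT replicate 1 or 2 the calls were 74 and 69 for solute carriers, 10 and 12 for ABC transporters, and 11 and 13 for autophagy genes and peroxins.

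Genes of cell contact and shape leaned downwards. Claudins, cadherins and other junction proteins had 3 higher and 17 lower of 39 (51.3%), with a median log2 fold change of -0.30. Cldn1, a tight junction protein (chromosome 16, 26356642 to 26371841), had 34.9 and 30.9 CPM in EP300 KO and 84.7 and 91.1 CPM in EP300 WT (-1.42, SE 0.08). The 3 rises were Gjb1 (0.45) and Gjb2 (0.47), the gap junction proteins of hepatocytes, and Nectin2 (0.20), whose call was lost without either EP300 WT library or EP300 KO replicate 1 and under library size alone and upper-quartile scaling. Semaphorins, plexins, ephrins and related guidance genes had 2 higher and 16 lower of 44 (40.9%), with Efna1, an ephrin, at 48.9 and 49.0 CPM against 139 and 150 CPM (-1.56, SE 0.07) and the netrin receptor Unc5b at -1.22 (SE 0.09). Integrins and laminins had 2 higher and 10 lower of 31 (38.7%), among them Itga3 (-0.93, SE 0.09). The actin and myosin set had 8 higher and 24 lower of 75 (42.7%). Without EP300 WT replicate 1 or 2, calls were 15 and 16 for junctions, 10 and 16 for guidance genes, 5 and 8 for integrins and laminins, and 16 and 17 for actin and myosin genes. Lower members outnumbered higher ones in each of these fits and under all scalings. Part of the stellate, endothelial and cholangiocyte markers fell in the same libraries, as given above. Others, among them Dcn, Kdr, Stab2 and Epcam, did not pass, and the part of these cell types was not tested.

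Signals and receptors also held more falls than rises. Secreted growth factors of the TGF-beta, Wnt and FGF families with their antagonists had 3 higher and 13 lower of 36 (44.4%, median log2 fold change -0.31). Cytokine and TNF receptors with their ligands had 6 higher and 14 lower of 57 (35.1%), and G protein-coupled receptors 15 higher and 21 lower of 74 (48.6%). Avpr1a, the vasopressin receptor of hepatocytes, had 7.76 and 8.05 CPM against 31.3 and 31.9 CPM (-2.0, SE 0.10). Il1rap, the shared subunit of interleukin-1 family receptors, went the other way, at 106 and 91.9 CPM against 39.9 and 41.9 CPM (1.27, SE 0.08). Ion channels split evenly, with 12 higher and 11 lower of 56, which became 11 and 14 under library size alone. The cytokine set gave 12 calls and the ion channels 13 without EP300 WT replicate 1, and the same numbers without replicate 2. The G protein-coupled receptors gave 23 without replicate 1.

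Several families of the general gene expression machinery, and the proteasome, were called at shares below the 29.5% of genes in no liver list. Translation factors, with 7 higher and 13 lower of 67 (29.9%), and histone genes, with 4 and 4 of 25 (32.0%), were not. All of these shares lay below the 33.9% of all genes. Zinc finger genes had 24 higher and 36 lower of 383 (15.7%), splicing and RNA-binding genes 11 and 13 of 147 (16.3%), and chromatin regulators 14 and 11 of 116 (21.6%). The proteasome had 3 and 2 of 46 (10.9%) and tRNA synthetases 3 and 4 of 37 (18.9%). Mitochondrial ribosomal proteins had 12 higher and 3 lower of 78 (19.2%). Their changes were small, with 0 of the 147 splicing genes, 0 of the 37 tRNA synthetases and 0 of the 78 mitochondrial ribosomal genes past 2-fold. The median size of the change, regardless of sign, was 0.13 for splicing genes and 0.10 for the proteasome on the log2 scale. It was 0.25 for all genes and 0.23 for genes in no liver list. The splicing, chromatin and proteasome splits turned under at least 1 other scaling. Without EP300 WT replicate 1 or 2 the calls were 31 and 29 for zinc fingers, 11 and 4 for splicing, 13 and 7 for chromatin regulators, 3 and 4 for tRNA synthetases, 7 and 5 for mitochondrial ribosomal proteins, and 1 and 2 for the proteasome.

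Over the autosomes and X the share of called genes ran from 27.7% on chromosome 14 to 37.8% on chromosome 6, beside 33.9% overall. It was 42.9% of 28 genes on the mitochondrial genome and 16.7% of 6 genes on Y. Median log2 fold changes of the autosomes and X ran from -0.08 on chromosome X to 0.06 on chromosome 4. Chromosome X had 53 higher and 93 lower of 422 genes, and lower genes outnumbered higher ones there under all scalings and with any library left out. Outside the liver lists it had 39 higher and 79 lower of 378. Chromosome 4 had 195 higher and 133 lower of 886, a split that turned under library size alone (152 and 161). Leaving out EP300 WT replicate 1 or 2 lowered the number of calls more than 1.5 times on each of the 19 autosomes, X and the mitochondrial genome, to 76 and 73 on X and to 196 and 198 on chromosome 4.

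**Figure D5:**
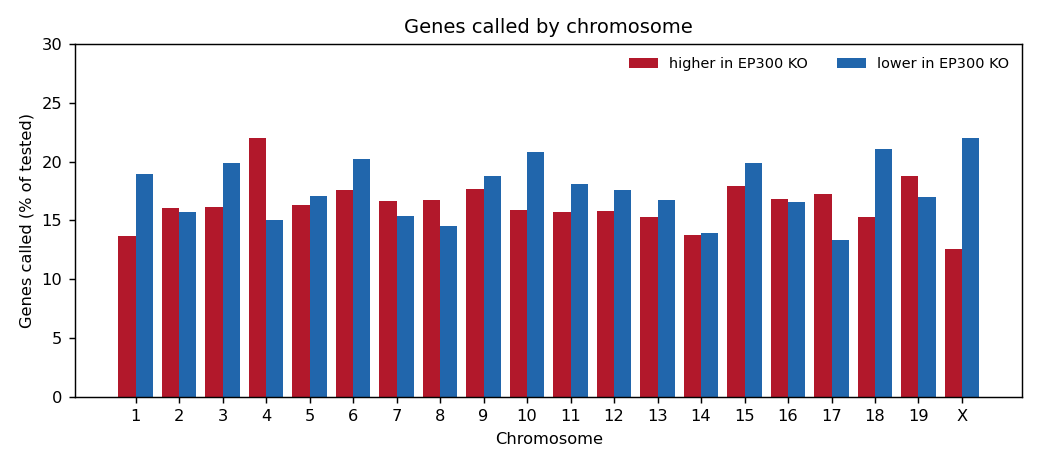
Bars give the percentage of tested genes on each chromosome that were called higher (red) or lower (blue) in the libraries labelled EP300 KO. Chromosome 4 has the highest red bar (22.0%) and chromosome X the lowest (12.6%), a blue bar of 22.0% standing beside it.

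Neighbouring genes sometimes moved together. There were 20 runs of at least 3 neighbouring tested genes that all changed at least 2-fold in 1 direction, 8 higher and 12 lower, with 97 genes in all. The longest was a block of 24 higher genes on chromosome 4 (60066469 to 62150863), the major urinary protein cluster, whose members are near copies of each other and share reads. The next was a block of 8 lower immunoglobulin heavy chain genes on chromosome 12 (113325240 to 115648387). The variable genes in it have the filter limit given above. Runs of 4 included Ramp3, Adcy1, Igfbp1 and Igfbp3 on chromosome 11 (6658521 to 7213923) and Dlk1, Meg3, Rian and Mirg on chromosome 12 (109452823 to 109749460), both lower, and the call of Ramp3 was lost without EP300 WT replicate 2. Only 1 run of 4 held no gene of the liver lists, and it was higher. It joins Lama3, a laminin subunit, with Ttc39c, Cabyr and the predicted gene Gm7599, and its members changed by 1.75 to 3.08 on the log2 scale. Among runs of 3, Slfn1, Slfn4 and AI662270 on chromosome 11 (83116849 to 83226604) fell and are in no liver list. Slfn1 and Slfn4 are schlafen genes, a family that responds to interferon, and each of the 3 lost its call without at least 1 of the EP300 WT libraries.

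Transcript features moved with direction in part. In the quintile of protein-coding genes with the lowest GC content 302 were higher and 505 lower, with a median log2 fold change of -0.08. In the quintile with the highest GC content 503 were higher and 437 lower, with a median of 0.03. The shares called were 31.6% and 36.8%. Library size alone in place of TMM moved the median of all genes by a like amount, from -0.01 to -0.07. The dependence of the splits by GC content on scaling or on single libraries is not given here. By exon length, 11.8% of the shortest quintile and 5.09% of the longest quintile changed at least 2-fold.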

How the data were processed

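RNA-seq of 4 libraries was analysed, and the 6 diet libraries of the series were not analysed here. The values are raw read counts per gene, whole numbers that the authors deposited in 1 table. STAR, HTSeq and DESeq2, and the build mm10, are listed with no role in the submitters' processing notes. The annotation and the strand setting of the counting are not given in the sources used here. The TruSeq RNA kit named in the labels does not mark strand. A further 4 columns of the table, matching no sample, were not used. Groups came from sample titles. Of 55385 identifiers, 55144 matched GENCODE M21, which gave symbols, classes, exon overlap and coordinates on mm10. Untested genes held 0.0983% to 0.112% of the counts of a library. At the edge of the filter, 200 genes had a second-highest count of 10, of which 29 were called, and 228 genes had 9 and were not tested.

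Genes with 10 or more counts in at least 2 libraries entered the quasi-likelihood test of edgeR 4.0.16 (R 4.3.3), with TMM scaling and no covariate besides group, 2 residual degrees of freedom and Benjamini-Hochberg adjustment over all genes tested at a threshold of 0.05. The common biological coefficient of variation was 5.47%. Each SE was taken from the fold change on the log2 scale and its F statistic (size over root F). The chi-square of counts per degree of freedom was 5.95 within EP300 KO and 2.72 within EP300 WT, so no pair agreed within sampling noise. Replicate numbers did not pair the libraries (correlation of deviations 0.000383). The edgeR step was tested on simulated data. Exact intervals are at the 95% level and, like the floor of 3 counts, cover counting error only. Promoter sequences are from RefSeq.

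Members, lists and the naming rule were chosen with earlier results of these data known. Named genes were Ep300, the 15 largest rises and falls and the 5 most abundant of each among genes outside the liver lists that passed at 2-fold without overlap at 10 CPM or more, and the largest changes of each gene class and family (10 or more members), with sex-linked and on/off genes. The 129 genes are not all printed, and a few results are not reported here. Alternatives were DESeq2 1.42.0, limma-voom (limma 3.58.1), glmTreat, 3 scalings, 3 filters, a fit without the 20 most abundant genes, a replicate block and fits without 1 library.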

Additional observations from a re-analysis of the deposited data

How the results depend on the processing

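With 2 libraries a group, each gene had 2 residual degrees of freedom, so its standard error leans on the dispersion that edgeR shares across genes. DESeq2 called 3275 genes, 1663 higher and 1612 lower. With no filter beyond 1 count 2703 genes were called, 1416 higher and 1287 lower, from 24666 tested. The 2-fold count of 1169 became 669 where at least 50 counts in 2 libraries were required, and 482 where glmTreat tested against 2-fold. Leaving out 1 library at a time, with the lone library of an arm assumed to vary like the other arm, gave 2845 to 5186 genes changed, 1361 to 2532 higher, 1482 to 2654 lower and 929 to 1269 changed at least 2-fold. Genes called in the main fit and under an alternative had the same direction under every alternative run. The replicate number as a block, though the numbers do not pair the libraries, gave 5210 calls, 2536 higher and 2674 lower. Of 129 named genes, 116 kept direction and side of the threshold under all 14 alternatives. Of the named genes 1 reversed, Eif2s3y, which was not called at 0.06 and stood at -0.00496 under library size alone and between -0.047 and 0.17 with 1 library left out, the lower value without EP300 KO replicate 1; the cause was not tested. Counts by abundance class, gene class, family and chromosome moved by over 1.5 times in 63 of 74 cases without EP300 WT replicate 1 and in 61 without replicate 2. Depth limited the low genes: the median SE was 0.49 below 1 CPM and 0.05 at 1000 CPM and over, and the smallest change called was 1.10 and 0.11 on the log2 scale.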

Other observations

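The gene groups that follow were chosen after their values were seen, and all their tested members are counted. The share of all genes called, 33.9%, stands beside each count, and no group was tested as a group. Of 9 carbonic anhydrases tested, 4 rose and 2 fell. Besides Car3 and Car1, Car5a, the mitochondrial enzyme of hepatocytes, rose from 14.6 ± 0.0608 to 41.4 ± 3.83 CPM (SD, n = 2 in each group) with a log2 fold change of 1.5. The membrane-bound Car14 rose from 12.4 ± 1.62 to 26.5 ± 1.15 CPM (1.09). Of the exon bases of Car5a 23.5% and of Car14 17.5% overlap another gene, so reads there cannot be assigned to 1 gene. Car2 fell by 0.70 on the log2 scale, a call lost without EP300 WT replicate 1, and Car13 by 1.17, a call lost without EP300 KO replicate 2 or EP300 WT replicate 2. The activin genes divided by subunit. Inhbe, a subunit made by hepatocytes, rose by 1.45, from 19.8 ± 0.630 to 54.2 ± 3.57 CPM, and Inhbc by 0.26, a call lost in 3 of the 4 fits that left out a library. Inhba fell by 1.23, from 17.6 ± 0.503 to 7.47 ± 0.730 CPM, Inhbb by 0.73, and the activin-binding protein Fst by 1.44. None of the 5 activin receptors tested passed with edgeR.

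Plasminogen activation genes went both ways, 4 higher and 4 lower of 10 (33.9% of all genes called). Of the 4 higher, Plg lost its call without EP300 WT replicate 1 or 2 and Plaur in each fit that left out a library. Beside the fall of Plat, Serpinf2, the plasmin inhibitor of plasma, went from 1467 ± 20.2 to 1060 ± 48.2 CPM (-0.47). Serpine2, an inhibitor of thrombin and plasminogen activators, rose from 0.864 ± 0.193 to 4.82 ± 0.390 CPM (2.47), and the urokinase gene Plau rose by 0.84. Retinoid genes had 8 higher and 8 lower of 27, again beside 33.9% of all genes. Retsat, which saturates retinol, rose from 77.4 ± 3.27 to 249.7 ± 16.8 CPM (1.69), Cyp26a1, which breaks down retinoic acid, by 1.25, and the retinol dehydrogenase Rdh7 by 0.89. Bco1, which cleaves beta-carotene, fell by 1.45, Rdh9 by 1.35 and the retinoic acid receptor Rarg by 1.11. Of the exon bases of Rdh9 64.1% overlap another gene, and of those of Retsat 18.4%, so reads there cannot be assigned to 1 gene. Rbp4, the plasma carrier of retinol, did not pass (0.04, edgeR adjusted p = 0.574), at 2613 ± 31.3 CPM in EP300 KO and 2546 ± 8.10 CPM in EP300 WT.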
